A study of Mus musculus with 6 samples.

Results

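The epithelial kallikreins Klk5, Klk6, Klk7, Klk8, Klk9, Klk10, Klk11, Klk13 and Klk14 and the inhibitor Spink5 were followed in mouse gingiva, the mucosa around the teeth. The 10 genes were chosen by name, from a table of 48709 genes, and all 10 passed the filter on low counts. Gingiva came from 12-week-old mice labelled C57BL/6, 3 libraries from wild-type littermates (Plg WT) and 3 from mice deficient in Plg (Plg KO), the gene for plasminogen, precursor of the fibrin-dissolving protease plasmin. The labels used here give neither the design of the Plg allele nor an animal for each library, so a p-value reflects library-to-library spread that could be partly technical. The series asks how the transcriptome of oral mucosa differs without Plg.

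Kallikreins are secreted serine proteases made as inactive precursors. In stratified epithelium they act outside the cells of the upper layers, where Klk5, Klk7 and Klk14 form a cascade that cuts desmosomal proteins such as corneodesmosin and lets surface cells shed. Spink5 encodes LEKTI, a multidomain inhibitor of this cascade whose loss causes Netherton syndrome, a disease of excess shedding and inflammation. Plasmin, the protease that Plg KO mice lack, can activate the precursor of the Klk6 protein in the test tube.

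Total gene counts ran from 26183389 to 36429150 per library. Krt4 and Krt13, keratins of oral epithelium, were abundant in all 6 libraries, with means of 15358 and 7371 CPM in Plg WT. CPM is each count scaled to library size, with TMM factors correcting for library composition. Skeletal muscle and salivary gland transcripts were also present and differed between libraries, as given below. Plg itself had at most 2 counts in any library and gives no check of the genotype labels. In bulk tissue, fewer cells of a type and less RNA per cell cannot be told apart.

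No kallikrein passed the test between Plg KO and Plg WT gingiva, and neither did Spink5. Klk10 was the 1 gene of the 10 whose groups did not overlap, with all 3 Plg KO libraries lower. Over all tested genes, the groups of 14.7% did not overlap, and 7.18% were lower in Plg KO. Of the 10 genes, 0 were called at an adjusted p under 0.05 by edgeR (quasi-likelihood test, Benjamini-Hochberg adjustment over 17757 genes), against 0.237% of all genes. At an unadjusted p under 0.05 the count was also 0, against 9.25% of all genes. DESeq2, limma-voom and limma-trend called 0 of the 10 as well, against 2.01%, 0.231% and 0.242% of all genes, and DESeq2 and limma-voom also gave 0 at an unadjusted p under 0.05. The log2 change was positive for 4 and negative for 6, from -0.54 for Klk5 to 0.59 for Klk6, with a median of -0.09 (-0.00 over all tested genes).

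**Figure D1:**
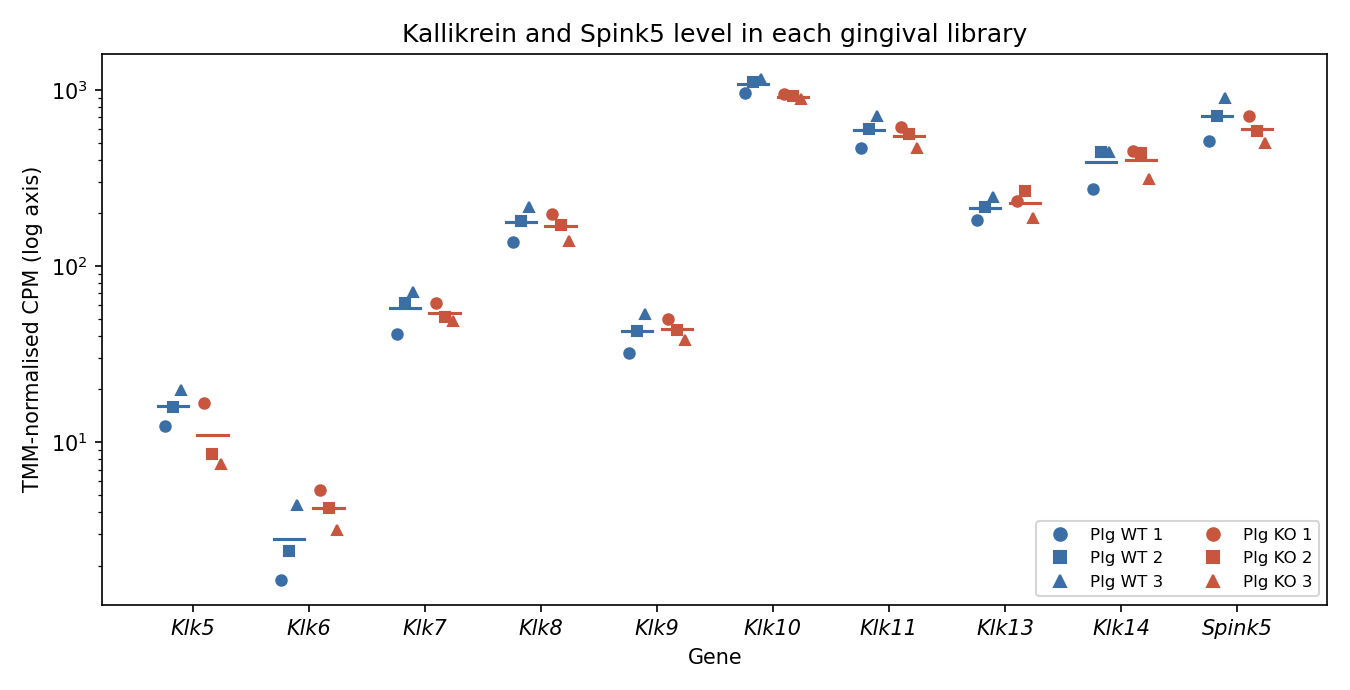
TMM-normalised CPM (log axis) of each of the 10 genes in the 3 Plg WT (blue) and 3 Plg KO (red) libraries, with the marker shape giving the library number and the bar the group mean. The groups overlap for every gene but Klk10, whose Plg KO libraries (883.5 to 946.7 CPM) lie just under the lowest Plg WT library (956.4 CPM).

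The shedding cascade came first. Klk5, a trypsin-like protease that starts the cascade by activating itself and then the others, lies on GRCm38 chromosome 7 from 43841971 to 43851181 (ENSMUSG00000074155). It had 12.4, 15.8 and 19.8 CPM in Plg WT 1, 2 and 3 against 16.7, 8.62 and 7.56 CPM in Plg KO 1, 2 and 3. Plg KO 2 and 3 were below every Plg WT library, whereas Plg KO 1 lay among them. The means were 16.0 ± 3.69 and 10.97 ± 5.02 CPM (SD over 3 libraries). The log2 change was -0.54 ± 0.32 (SE), and its 95% interval ran from -1.29 to 0.21 (adjusted p = 0.681, edgeR). With 1 library left out, the log2 change ran from -0.99 (without Plg KO 1) to -0.33 (without Plg KO 3), and Klk5 was called in none of these fits.

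Klk7, a chymotrypsin-like protease that cuts corneodesmosin (ENSMUSG00000030713, chromosome 7, 43811294 to 43816359), had 41.1, 61.9 and 71.2 CPM in Plg WT 1, 2 and 3 against 61.8, 51.5 and 48.5 CPM in Plg KO 1, 2 and 3. All 3 Plg KO values lay within the Plg WT range. Its log2 change was -0.10 ± 0.20, with an interval of -0.58 to 0.37.

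Klk14, a trypsin-like protease that activates Klk5 and cuts desmoglein 1 (ENSMUSG00000044737, chromosome 7, 43690418 to 43695536), had 274.6, 445.8 and 445.9 CPM in Plg WT against 451.4, 436.0 and 311.6 CPM in Plg KO. Plg WT 1 and Plg KO 3 stood below the other 4 libraries. The log2 change was 0.04 ± 0.22, with an interval of -0.48 to 0.56.

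Spink5 (ENSMUSG00000055561, chromosome 18, 43963235 to 44022501), the inhibitor of these proteases, had 514.0, 706.8 and 899.8 CPM in Plg WT 1, 2 and 3 against 709.5, 580.7 and 500.3 CPM in Plg KO 1, 2 and 3. The span of the Plg WT libraries took in 2 of the 3 Plg KO libraries, and Plg KO 3 was slightly below it. The means were 706.9 ± 193 and 596.8 ± 105 CPM, a log2 change of -0.24 ± 0.22 with an interval of -0.76 to 0.27 (adjusted p = 0.805, edgeR).

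Klk6 and Klk8 are trypsin-like proteases first described in the brain that keratinocytes also make, and Klk13 is a trypsin-like protease abundant in oral and oesophageal epithelium. Klk6 (ENSMUSG00000050063, chromosome 7, 43824499 to 43832030) was the lowest of the 10, with 61, 68 and 138 counts in Plg WT 1, 2 and 3 against 198, 109 and 114 counts in Plg KO 1, 2 and 3. That is 1.66, 2.43 and 4.42 CPM against 5.34, 4.23 and 3.19 CPM. All 3 Plg KO libraries exceeded Plg WT 1 and 2, and Plg WT 3 exceeded Plg KO 2 and 3. The log2 change was 0.59 ± 0.38, with an interval of -0.30 to 1.47 (adjusted p = 0.715, edgeR). Without Plg WT 3 it was 1.06, and without Plg WT 1 it was 0.31.

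Klk8 (ENSMUSG00000064023, chromosome 7, 43797577 to 43803826) had 136.7, 180.0 and 216.5 CPM in Plg WT against 197.4, 171.8 and 139.2 CPM in Plg KO, so that the Plg KO range lay wholly within that of Plg WT. Its log2 change was -0.07 ± 0.19, with an interval of -0.52 to 0.38. Klk13 (ENSMUSG00000054046, chromosome 7, 43712567 to 43727534) had 183.6, 215.3 and 245.3 CPM in Plg WT against 233.1, 266.5 and 187.6 CPM in Plg KO. Plg KO 2 was the highest library for Klk13 alone among the 10 genes. Its log2 change was 0.09 ± 0.16.

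Klk9, Klk10 and Klk11 are less well understood, and Klk10 is known mainly as a transcript lost in some carcinomas. Klk10 (ENSMUSG00000030693, chromosome 7, 43781035 to 43785410) had the smallest p of the 10 genes. It had 956.4, 1114 and 1151 CPM in Plg WT 1, 2 and 3 against 946.7, 917.3 and 883.5 CPM in Plg KO 1, 2 and 3. Every Plg KO library lay below every Plg WT library, and groups did not overlap for 14.7% of all tested genes (7.18% lower and 7.51% higher in Plg KO). The means were 1074 ± 104 and 915.8 ± 31.6 CPM. Its log2 change was -0.23 ± 0.11, with an interval of -0.48 to 0.02 (adjusted p = 0.588, edgeR).

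Klk11 (ENSMUSG00000067616, chromosome 7, 43774604 to 43779263) had 465.5, 595.9 and 713.5 CPM in Plg WT against 614.3, 560.8 and 469.8 CPM in Plg KO, all within the Plg WT range. Klk9 (ENSMUSG00000047884, chromosome 7, 43791891 to 43796757) had 32.3, 42.7 and 53.3 CPM in Plg WT against 49.9, 43.4 and 38.0 CPM in Plg KO, again within it. The log2 changes were -0.11 ± 0.18 and 0.03 ± 0.19.

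**Figure D2:**
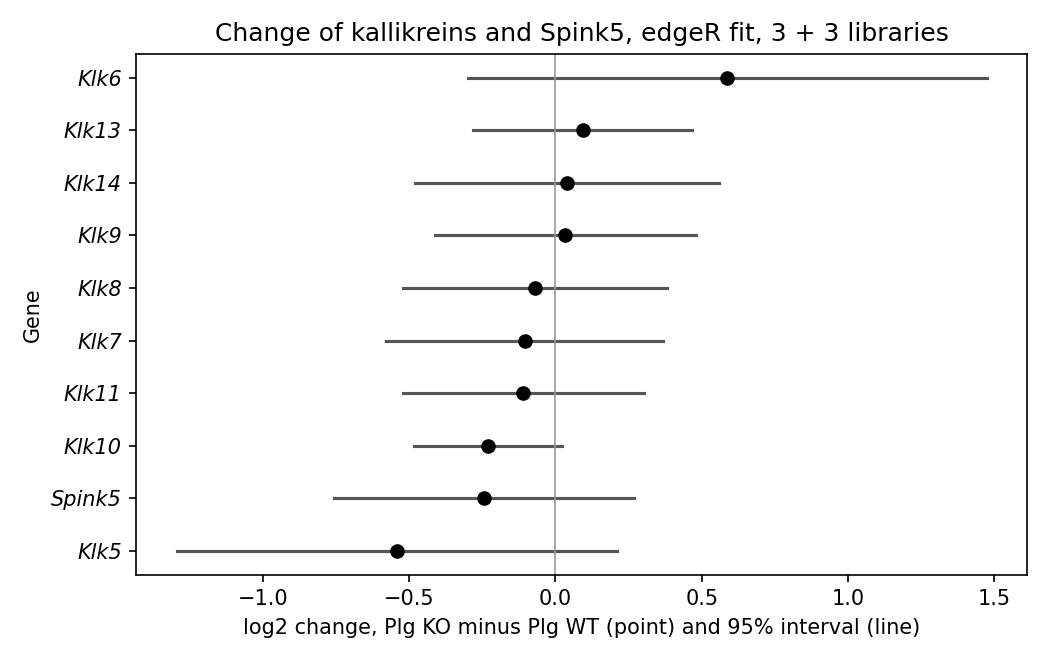
Log2 change of each gene, Plg KO minus Plg WT, in the edgeR fit (points) with its 95% interval (lines), ordered by size. All 10 intervals include 0, and they are narrowest for Klk10 (-0.48 to 0.02) and widest for Klk6 (-0.30 to 1.47).

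The sign of several of these small differences rested on single libraries. Leaving out Plg WT 3 made Klk7, Klk8 and Klk11 positive (0.07, 0.10 and 0.05), and leaving out Plg WT 1 made Klk9, Klk13 and Klk14 negative (-0.13, -0.01 and -0.16). The sign also changed without Plg KO 1 for Klk9 and Klk14, without Plg KO 2 for Klk13 and Klk14, and without Plg KO 3 for Klk8. Klk5, Klk6, Klk10 and Spink5 kept their sign without any 1 library.

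Levels differed far more between the genes than between the genotypes. Per kilobase of exon, Klk10 was the most abundant at 724.6 CPM per kb (mean of 6 libraries, range 643.5 to 838.5), followed by Klk11 at 388.5 (317.3 to 486.4), Klk14 at 310.2 (216.1 to 355.2), Spink5 at 136.2 (104.6 to 188.1), Klk8 at 112.7 (88.8 to 140.6) and Klk13 at 96.6 (79.9 to 116.0). Klk7 and Klk9 were near each other at 29.5 (21.7 to 37.6) and 29.3 (21.9 to 36.1). Klk5 had 10.1 (5.66 to 14.8) and Klk6 2.34 (1.10 to 3.53), 309.0-fold less than Klk10. Of the 9 neighbouring pairs in this order, 5 did not overlap over the 6 libraries. The 4 that did were Klk11 and Klk14, Spink5 and Klk8, Klk8 and Klk13, and Klk7 and Klk9. The lengths are merged exons of all annotated transcripts, which understates the level of genes with unused exons.

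The 9 kallikreins lie in 1 run of 160.8 kb on chromosome 7, all on the plus strand, with Klk12 as the only other kallikrein inside it. Klk14 stands at one end and Klk5 at the other. The most abundant, Klk10 and Klk11, are next to each other, and the least abundant, Klk5 and Klk6, are neighbours at the Klk5 end. Klk12, a kallikrein of the same run that was not among the 10, had 144.5, 180.7 and 189.7 CPM in Plg WT against 191.4, 139.8 and 119.5 CPM in Plg KO (log2 change -0.19 ± 0.19), with the same lowest and highest library in each group as Klk5. An annotated antisense transcript, 2310002F09Rik, crosses part of the run and shares 382 exon bases with Klk8 and 287 with Klk14. It had 1706 counts over all 6 libraries. The library kit does not mark strand, so reads in those stretches cannot be told apart.

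**Figure D3:**
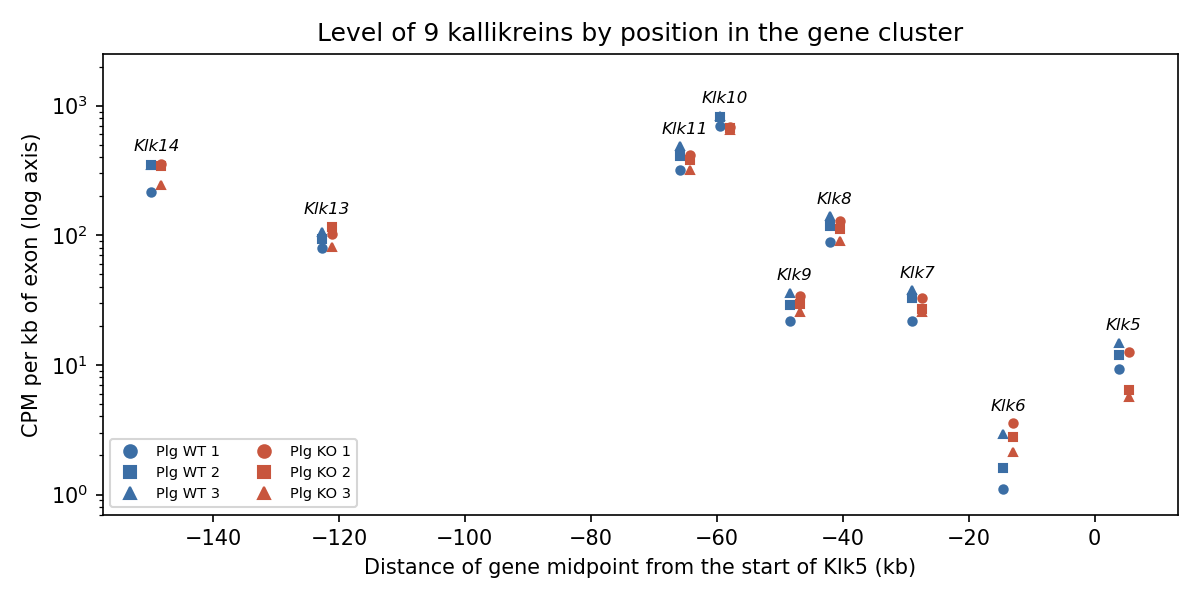
CPM per kb of exon (log axis) of the 9 kallikreins in every library against the distance of the gene's midpoint from the start of Klk5 in kb, with Plg WT in blue and Plg KO in red. Levels span from 1.10 (Klk6) to 838.5 (Klk10) CPM per kb, and the genotypes overlap at every position but that of Klk10.

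The 10 genes moved together from library to library within each genotype. In Plg WT all 10 were lowest in Plg WT 1 and highest in Plg WT 3. Among Plg KO libraries all 10 were lowest in Plg KO 3, and 9 were highest in Plg KO 1, Klk13 being the exception. This order held in both groups for 9 of the 10 genes and for 8.03% of all tested genes. It was singled out after the values were seen, and no test was made of it. The highest library exceeded the lowest by a median of 1.61-fold in Plg WT against 1.42-fold in Plg KO over the 10 genes. Over the 14691 genes averaging 1 CPM or more, the medians were 1.27-fold and 1.26-fold.

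Some epithelial marker genes had the same order. It held for 5 of 16 differentiated epithelium genes, 3 of 8 wound epithelium genes and 2 of 7 basal epithelium genes. It held for 0 of 10 salivary gland genes and 0 of 8 muscle genes, lists so short that the share over all genes would give less than 1 gene in each. Summed over the list, differentiated epithelium had 29183 to 38441 CPM in Plg WT against 31714 to 39691 in Plg KO, salivary gland had 1862 to 11269 and 8468 to 10629, and skeletal muscle had 5460 to 10304 and 2342 to 10824. The mean centred log2 level of the muscle list was 0.50, -0.23 and -0.09 over Plg WT 1, 2 and 3, and 0.38 to 0.66 for Plg KO 2 and 3, with -1.21 for Plg KO 1. Within each genotype the muscle list was highest in Plg WT 1 and Plg KO 3, where all 10 genes were lowest. It was lowest in Plg KO 1, where 9 of the 10 were highest. In Plg WT it was lowest in Plg WT 2, whereas the 10 genes were highest in Plg WT 3. The salivary gland list was at 0.72, -1.21 and -1.25 over Plg WT 1, 2 and 3, and at 0.13, 0.72 and 0.89 over Plg KO 1, 2 and 3. In both genotypes this list mean ran in the reverse of the kallikrein order. Of 15 salivary gland genes, 10 passed the filter on low counts, and the secretory genes Smr2 and Prol1 were at 0 counts in every library. All 8 muscle genes passed. The part of tissue makeup in the kallikrein levels was not tested.

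**Figure D4:**
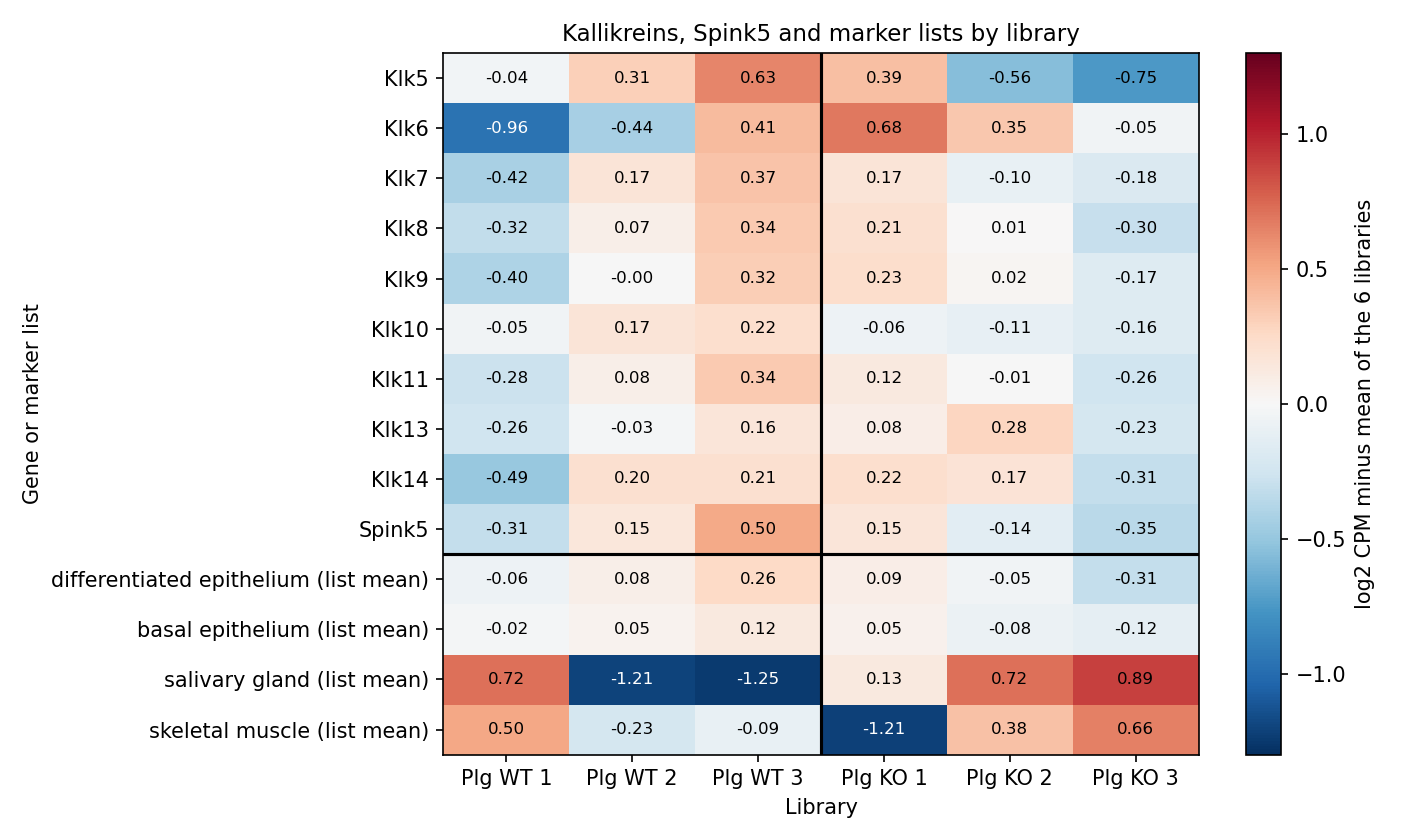
Log2 CPM minus the mean of the 6 libraries for each of the 10 genes (upper rows) and, as the mean over a marker list, for 4 tissue compartments (lower rows), with red above and blue below the mean. Kallikreins are low in Plg WT 1 and Plg KO 3 and high in Plg WT 3, while the salivary gland list runs from -1.25 in Plg WT 3 to 0.89 in Plg KO 3.

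Sex-linked transcripts also fell along this order. Reads of the Y-linked Ddx3y numbered 1475 for Plg WT 3, 1838 for Plg KO 1 and no more than 2 for each of the other 4 libraries. Those of Xist, a transcript of female cells, numbered 10 for Plg WT 3, 2 for Plg KO 1 and 917 to 1129 for the other 4. By these reads each genotype had 1 male library, and the other 4 libraries were female. Within genotype, Plg WT 3 was highest for all 10 genes and Plg KO 1 for 9. A term for these libraries is therefore not separate from that order. Such a term was added to the edgeR fit, and its own size was computed only after the data were seen. The log2 difference between Ddx3y-positive and other libraries was positive for all 10 genes. It ran from 0.11 ± 0.11 for Klk10 to 0.82 ± 0.26 for Klk6, with 0.77 ± 0.18 for Klk5 and 0.48 ± 0.15 for Spink5. None of the 10 passed adjustment over all genes (adjusted p = 0.555 for Klk5, Klk6 and Spink5), against 0.0113% of all genes. At an unadjusted p under 0.05 the count was 6 of 10 (Klk5, Klk6, Klk8, Klk9, Klk11 and Spink5), against 8.76% of all genes. With this term in the fit, 0 of the 10 genes were called for genotype, against 0.366% of all genes. At an unadjusted p under 0.05 there were 2, Klk5 and Klk6, against 10.8% of all genes. Their log2 changes with the term were -0.61 ± 0.17 for Klk5 and 0.65 ± 0.25 for Klk6 (adjusted p = 0.275 and 0.427, edgeR).

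The closest pairs among the 10 lay in the stretch from Klk11 to Klk7, in which Klk10 stood apart. Likeness was measured as the root mean square difference between log2 CPM values, each gene centred on its mean over the 6 libraries, so that 0 means the same pattern. It was 0.04 for Klk8 and Klk11, 0.07 for Klk8 and Klk9, and 0.09 for each of Klk9 and Klk11, Klk7 and Klk8, Klk7 and Klk11, and Klk7 and Klk9. Klk5 and Klk6 were the least alike at 0.69. Spink5, on another chromosome, was at 0.10 from each of Klk7, Klk8 and Klk11. Among all 17756 other tested genes these 3 ranked 42, 35 and 34 in likeness to Spink5, while Klk6 ranked 12048.

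Because Klk7, Klk8, Klk9 and Klk11 moved most alike and Klk10, which lies among them, varied least, the 100 bases before the start of each are printed 5′ to 3′ on the plus strand. Sequences are from RefSeq (GRCm38.p6), up to the base before the gene's start in GENCODE M21, in the order of the genes along the chromosome. They span chr7:43774504-43774603, chr7:43780935-43781034, chr7:43791791-43791890, chr7:43797477-43797576 and chr7:43811194-43811293. Capitals mark the letters TTAAAA, a variant of the TATA box, and GGGCGG, the GC box bound by Sp and Klf factors, on either strand.
Klk11: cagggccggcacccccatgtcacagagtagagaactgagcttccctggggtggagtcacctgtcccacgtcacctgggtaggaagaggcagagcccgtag
Klk10: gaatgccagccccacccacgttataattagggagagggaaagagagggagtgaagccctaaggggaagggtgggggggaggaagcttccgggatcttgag
Klk9: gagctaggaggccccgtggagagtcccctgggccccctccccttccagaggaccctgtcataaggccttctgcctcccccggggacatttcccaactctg
Klk8: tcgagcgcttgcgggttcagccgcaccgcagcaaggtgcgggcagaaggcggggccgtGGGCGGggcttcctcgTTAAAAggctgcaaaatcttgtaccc
Klk7: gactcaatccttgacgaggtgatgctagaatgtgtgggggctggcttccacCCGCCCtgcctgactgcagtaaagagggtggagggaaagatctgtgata

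None of the motifs searched was in all 5 windows. Over 8 kallikreins whose window was held, on both strands, TATAAA was in 0 (5.56% of 32851 RefSeq windows of the same length), TTAAAA in 1 (6.32%), GGGCGG in 3 (24.7%), CACCC, the core of Klf sites, in 4 (27.2%) and TGANTCA, the AP-1 site, in 0 (2.73%). The 32851 windows end before the RefSeq start and those of the kallikreins before the GENCODE start. These starts can differ, so the shares are only a rough comparison. CACCC and GGGCGG can overlap. A match is a description of the letters and not a site of binding.

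By the same measure of likeness, the 5 named genes outside the set nearest to Spink5, averaging 1 CPM or more, were Dkkl1 (0.06), Gpr161, Ywhaz, Ablim1 (0.07 each) and Hspa4l (0.08), where the median gene was at 0.35. Those nearest to Klk10 were Sf3b2 and Gas6 (0.02 each) and Mcmbp, Ccdc120 and Kmt5b (0.03 each), with a median of 0.23. With 6 libraries and 13123 genes compared, some genes lie this close to almost any pattern.

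Since Spink5 and its target proteases are read from the same library, each kallikrein was also expressed as a percentage of the Spink5 count. Such a ratio also carries the spread of Spink5 itself between libraries, 1.75-fold in Plg WT and 1.42-fold in Plg KO. Klk6 stood at 0.324%, 0.343% and 0.491% of Spink5 in Plg WT 1, 2 and 3 against 0.753%, 0.729% and 0.638% in Plg KO 1, 2 and 3. Klk9 stood at 6.28%, 6.04% and 5.93% against 7.04%, 7.46% and 7.60%, and Klk8 at 26.6%, 25.5% and 24.1% against 27.8%, 29.6% and 27.8%. For these 3 of 9 kallikreins every Plg KO library was above every Plg WT library. The same was true of 6.41% of all tested genes set against Spink5 in this way, and 7.48% did not overlap in either direction. The ratio had been planned for Klk5, Klk7 and Klk14 only, so Klk6, Klk8 and Klk9 are additions. Klk8 and Klk9 themselves had log2 changes of -0.07 and 0.03, and Spink5 one of -0.24. In both genotypes the Klk9 ratio ran in the reverse of the library order of Spink5.

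The 3 proteases of the shedding cascade overlapped between genotypes on this ratio. Klk5 was at 2.42%, 2.24% and 2.20% of Spink5 in Plg WT against 2.36%, 1.48% and 1.51% in Plg KO. Klk7 was at 8.22% ± 0.465 and 9.09% ± 0.524 and Klk14 at 55.4% ± 6.96 and 67.0% ± 7.03 (SD, n = 3 each). Klk6 and Klk5 differed from each other most, and Klk6 counts were 13.4%, 15.3% and 22.3% of Klk5 counts in Plg WT against 31.9%, 49.1% and 42.2% in Plg KO, a pair chosen after its values were seen. These ratios were described by library only, with no test.

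**Figure D5:**
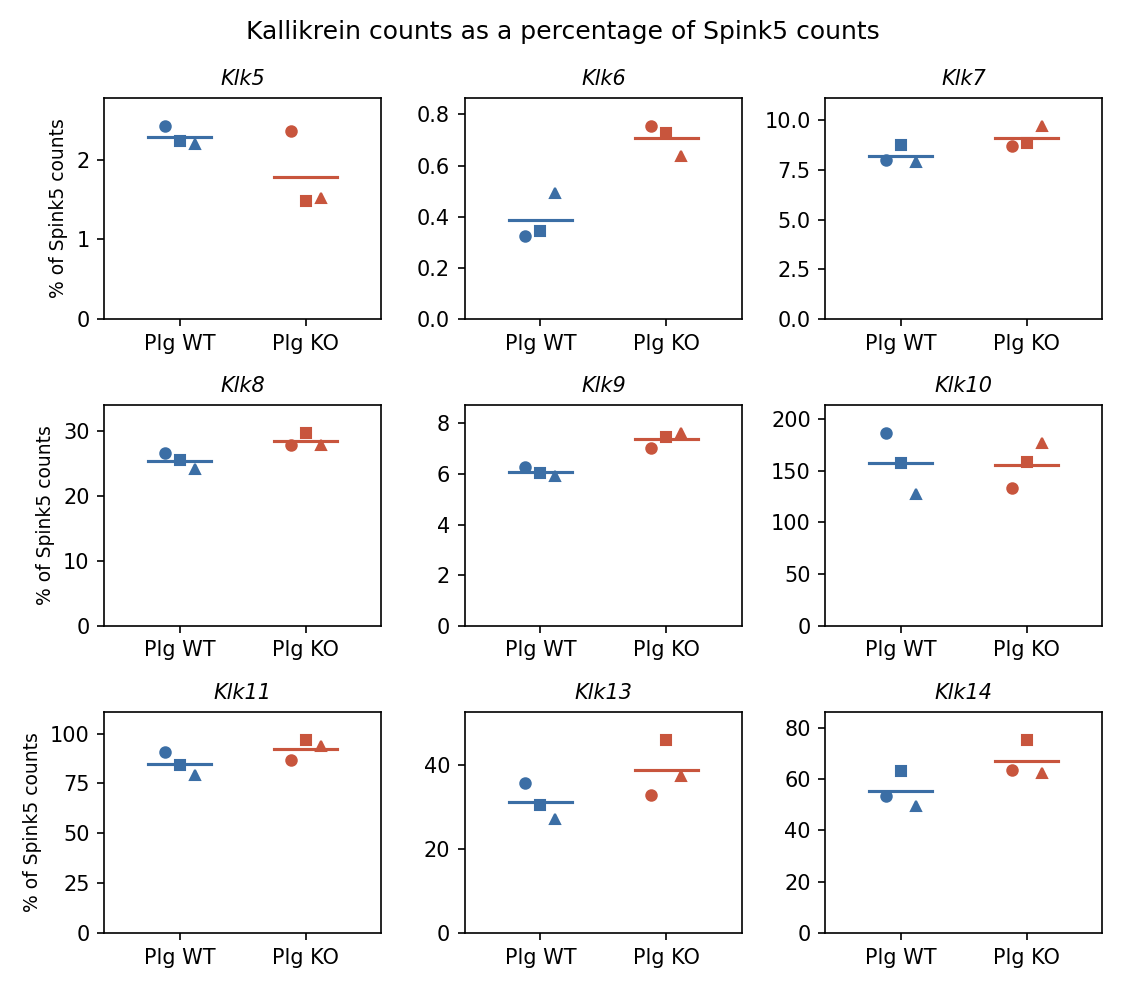
Counts of each kallikrein as a percentage of Spink5 counts in the same library, with 1 panel per gene, Plg WT in blue, Plg KO in red, and bars for group means (vertical axes start at 0 and differ between panels). Klk6, Klk8 and Klk9 have all 3 Plg KO libraries above all 3 Plg WT libraries, and the other 6 overlap.

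Other genes around the kallikreins were described from lists. Of 17 other kallikreins, 5 were tested and 0 called (0 at an unadjusted p under 0.05), with a median log2 change of -0.15. The glandular kallikrein Klk1b11 and the enamel protease Klk4 had the smallest p, with log2 differences of 0.57 ± 0.52 and -0.93 ± 0.50. Both were low, at 0.476 and 0.847 CPM in Plg WT against 0.723 and 0.439 in Plg KO. Klk1 and its Klk1b relatives are near-identical copies, so how reads were divided among them is uncertain. Klk1, the tissue kallikrein of salivary ducts, had 12 to 51 counts over the 6 libraries.

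Of 17 other epithelial protease inhibitors, 12 were tested and 0 called (0 at an unadjusted p under 0.05), with a median of -0.01. Spink14 had a log2 difference of -0.81 ± 0.38 and Spint2, an inhibitor of the membrane protease matriptase, 0.26 ± 0.12. The level of Spink14 was low, at 0.719 CPM in Plg WT against 0.405 in Plg KO. Of 6 proteases that can activate kallikreins, 3 were tested and 0 called. Of the 3, 1 was lower at an unadjusted p under 0.05, against 759 of all 17757 genes. Prothrombin (F2) had 1.66 ± 0.191 CPM in Plg WT against 0.871 ± 0.181 in Plg KO, and matriptase (St14) 62.2 ± 6.35 and 71.5 ± 7.55.

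Of 11 kallikrein substrates, 10 were tested and 1 was called, against 0.237% of all genes. Il1b, the cytokine interleukin-1 beta, whose precursor kallikreins can cut, rose from 1.72 ± 0.615 to 12.4 ± 3.45 CPM, a log2 change of 2.85 ± 0.33 (adjusted p = 0.0252, edgeR). Of the 10, 4 had a positive log2 difference and 6 a negative one. Flg, filaggrin of the cornified layer, had 64.3 ± 18.2 CPM in Plg WT against 42.5 ± 14.8 in Plg KO, and Cdsn, corneodesmosin, 499.6 ± 145 and 385.5 ± 43.1. Dsg1a and Dsg1b, desmoglein 1 genes that are close copies of each other, had log2 differences of -0.31 ± 0.22 and -0.22 ± 0.19.

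In the epithelial lists, 0 of 16 differentiated epithelium genes were called, with a median of -0.07. Of the 16, 2 were lower at an unadjusted p under 0.05, against 759 of all 17757 genes. The envelope protein Lor and the keratin Krt2 had log2 differences of -0.35 ± 0.09 and -1.87 ± 0.63. Krt2 was low, at 1.05 CPM in Plg WT against 0.279 in Plg KO, and its groups overlapped. In the wound epithelium list, 2 of 8 genes were called, both higher, the envelope precursors Sprr2f and Sprr2e, against 0.237% of all genes. At an unadjusted p under 0.05, 3 of the 8 were higher, against 883 of all 17757 genes. The rise of Sprr2e and of Sprr2f was 2.32 ± 0.26 and 1.75 ± 0.17 on the log2 scale (adjusted p = 0.0245 and 0.0198, edgeR). Of the 8, 4 had a positive log2 difference and 4 a negative one, with a median of 0.07. The 4 negative were the keratins Krt6a (-0.23 ± 0.16), Krt6b (-0.03 ± 0.19), Krt16 (-0.08 ± 0.15) and Krt17 (-0.04 ± 0.19). Of 7 basal genes 0 were called, and the integrin Itgb4 and the hemidesmosome collagen Col17a1 had log2 differences of 0.35 ± 0.12 and -0.43 ± 0.11.

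Markers of other cells gave 0 called of 10 salivary gland genes (Lpo 1.54 ± 0.79 and Muc19 0.81 ± 0.51). Of the 10, 9 had a positive log2 difference, with a median of 0.75, and all 10 overlapped between genotypes. Lpo was low, at 0.458 CPM in Plg WT against 1.33 in Plg KO. The count called was 0 of 8 muscle genes (Pvalb 0.75 ± 0.38 and Myh2 -0.18 ± 0.22) and 0 of 7 fibroblast genes (Pdgfra -0.73 ± 0.22 and Col3a1 -0.46 ± 0.19). In the fibroblast list 6 of 7 genes had a negative log2 difference, with a median of -0.46. Of the 7, 3 were lower at an unadjusted p under 0.05, against 759 of all 17757 genes. The 1 tested gene of the enamel and junctional epithelium list, Odam, had a log2 difference of 0.58 ± 0.12 (adjusted p = 0.166, edgeR). Of 7 neutrophil genes 1 was called, the gelatinase Mmp9, which rose by 2.76 ± 0.30 (adjusted p = 0.0245, edgeR). The receptor Csf3r had a log2 difference of 2.73 ± 0.46 (adjusted p = 0.0892, edgeR). All 7 were higher at an unadjusted p under 0.05, against 9.25% of all genes in either direction. For all 7 every Plg KO library was above every Plg WT library, against 7.51% of all genes. The neutrophil list summed to 39.5 to 72.5 CPM across Plg WT libraries, against 178.9 to 540.5 across Plg KO libraries. The calls of Il1b, Sprr2e, Sprr2f and Mmp9 were all lost without Plg WT 2, Plg WT 3, Plg KO 2 or Plg KO 3 (adjusted p from 0.0697 to 0.165).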

How the data were processed

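The deposited raw counts per gene and the deposited CPM were used for 6 libraries. The submitters' processing notes name the aligner STAR (2.5.2a), the R packages DESeq2, limma and edgeR, and the builds mm10 and GRCm38.p3, without roles. What counted the reads, and on which gene models, is not given in those sources. Per the labels' protocols, Nextera XT libraries, which do not mark strand, were read as paired ends. Dividing the authors' CPM by the value of 1 read gave whole reads for 100% of values (tolerance 0.01 read), all equal to the raw counts, and edgeR on these reads called 42 genes. Names came from the deposited CPM table (21658 genes) and otherwise from GENCODE M21 (26691), leaving 360 with none. Positions and exon lengths are from GENCODE M21 (GRCm38).

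The 22 entries that name no gene were left out. The test was edgeR 4.0.16 in R 4.3.3 (TMM, filterByExpr, genotype only, Benjamini-Hochberg). Standard errors were derived from the change and its F statistic. Its 95% interval uses the fit's degrees of freedom. DESeq2 1.42.0 and limma 3.58.1 were alternatives, with other scalings and filters (including at least 1 CPM in 3 libraries), limma-trend (deposited CPM, log2 after adding 0.5), a replicate block, a sex term and each library left out. Scripts were tested on simulated data. Centred log2 CPM used a prior count of 2. All 15 library pairs differed beyond counting noise (chi-square per degree of freedom 21.4 to 111.4). A count of 0 allows 3 counts, 0.081 to 0.117 CPM, for counting error only.

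The genes and lists were chosen with earlier results of these data known. Named were the 10 genes, in every other list the called genes and the 2 with the smallest p, and the 5 genes most like Spink5 and the member with the smallest p. Klk12, Klk1, Krt4, Krt13, Krt6a, Krt6b, Krt16, Krt17, Cdsn, Dsg1a and Dsg1b were added after their values were seen.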

Additional observations from a re-analysis of the deposited data

How the results depend on the processing

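In all 170 fits of a kallikrein or Spink5 under 17 alternatives, no gene was called, and the lowest adjusted p was 0.206 (Klk10 without Plg WT 1). No sign changed under the 11 alternatives that kept all libraries. Among these, the looser threshold and the reads recovered from deposited CPM repeated the main fit, so their log2 changes could not differ. Leaving out 1 library gave log2 ranges of -0.30 to 0.069 for Klk7, -0.23 to 0.10 for Klk8, -0.13 to 0.23 for Klk9, -0.26 to 0.047 for Klk11, -0.030 to 0.22 for Klk13, -0.16 to 0.19 for Klk14 and -0.31 to 0.058 for Hspa4l, and these included both signs. Over all genes, 42 were called, against 390 with DESeq2, 162 with no filter, 2 with the replicate block, 65 with the sex term, 121 at an adjusted p under 0.10, and 2 to 219 when 1 library was left out. The list genes called numbered 4, against 11 with DESeq2, 10 with no filter, 1 with the replicate block, 7 at an adjusted p under 0.10, and 0 to 11 when 1 library was left out. The cause was not tested. With the block, Il1b, Sprr2e and Sprr2f missed the threshold (adjusted p = 0.0842, 0.0940 and 0.1004), as they and Mmp9 did in 4 of the 6 fits without 1 library (without Plg WT 2, Plg WT 3, Plg KO 2 or Plg KO 3). The labels used here do not say whether the replicate numbers pair the samples. Same-numbered libraries had correlations of -0.32, -0.02 and -0.31 between their deviations from group means. With 3 libraries per group, these values cannot decide it. The stricter filter gave no value for Spink14, Klk1b11, Krt2, Klk4 and Lpo. With the sex term, Klk5 and Klk6 fell under an unadjusted p of 0.05.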
